A study of Macaca mulatta with 6 samples.

Results

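The Period genes PER1, PER2 and PER3 and the cryptochrome genes CRY1 and CRY2 were followed in the adrenal gland of rhesus macaques over 6 clock times. They encode the repressors of the molecular clock. In mammals the activators, BMAL1 with CLOCK or NPAS2, bind E-box elements in the promoters of the Period and cryptochrome genes and switch them on. PER and CRY proteins then assemble, enter the nucleus and shut the activators off, and their slow turnover sets the length of the cycle. PER1 and PER2 are also induced directly by cAMP signalling and by glucocorticoids in many tissues, and the adrenal cortex is the gland that makes glucocorticoids.

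Members were all probe sets, the groups of short probes that report 1 transcript each, whose platform annotation names any of the 5 genes. They were 5 of the 13119 genes that the annotation names, with 7 of the 22215 probe sets that are not controls. PER1 and PER2 had 2 probe sets each, and PER3, CRY1 and CRY2 had 1 each. Both PER1 probe sets also name MIR6883, a microRNA gene that lies within PER1 in the human genome, so they cannot be assigned to PER1 alone. Of the 7 probe sets, 5 had a mean log2 value no lower than the median over all probe sets, and the other 2, of PER3 and CRY2, lay below it.

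Each clock time was represented by 1 ovariectomized female, whose left adrenal was frozen and hybridised as total RNA to 1 Affymetrix human expression array. Animals had lived for 3 months on 12 h of light and 12 h of dark and were fasted for 12 h before collection; the hour of lights-on was not given in the sources used here. The 3 AM and 7 AM animals were both 12 years old, the 11 AM animal 10 years 37 days, the 3 PM animal 8 years 106 days, the 7 PM animal 7 years 82 days and the 11 PM animal 8 years 70 days. No clock time had a second animal, so differences between animals and between times cannot be told apart, and the error of a fit is the spread of single animals around a smooth curve. Values are intensities on a linear scale, comparable within a probe set and not between probe sets, and probes built on human sequence can bind a macaque transcript unevenly.

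Markers of the adrenal cortex and medulla gave signal on every array. STAR, which delivers cholesterol to the mitochondrion, lay between 9833 and 16413, and TH, the first enzyme of catecholamine synthesis in the medulla, between 1903 and 8245. Of 4 kidney genes listed 2 were measured, the transporter gene SLC12A1 between 4.3 and 27.8 and the water channel gene AQP2 between 353 and 567. AQP2 lay above the array medians, which ran from 154 at 7 AM to 173 at 3 PM. Levels are not comparable between probe sets, and the presence of kidney tissue was not tested. Correlations between arrays across probe sets ran from 0.916 to 0.928. Hybridisation controls added to the samples were dimmer on the 3 AM array (geometric mean 542) and the 3 PM array (669) than on the remaining 4 arrays (948 to 1101). A whole gland was measured, so fewer cells of a type and less RNA per cell cannot be told apart.

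PER2 had the clearest course over the day. The brighter probe set, 205251_at, read 559.5 at 3 AM, 1248 at 7 AM, 908 at 11 AM, 439 at 3 PM, 196 at 7 PM and 199 at 11 PM. It was high through the morning and low through the evening, with the 3 AM and 3 PM animals in between on the rising and falling sides. Intensity at 7 AM was 6.37 times that at 7 PM, and at 11 AM 4.55 times that at 11 PM, whereas 3 PM was 0.785 times 3 AM. Ordered from high to low, 4 of the 5 gaps between neighbouring levels exceeded the standard deviation of a difference (0.32 on the log2 scale). The exception was the pair 11 PM and 7 PM, which differed by 0.02. For each probe set that standard deviation comes from the spread around its own curve, fitted below, and not from repeated animals. It is small where the curve fits well, so the count of gaps adds no support to the fit.

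A cosine with a 24-h period was fitted to log2(intensity + 1) of each probe set. For 205251_at the fitted peak fell at clock hour 8.47 ± 0.35 (SE), and the peak was 7.09 times the trough, a log2 difference of 2.83 ± 0.26 (SE). The curve took up an R2 of 0.989 of the variation, against a median of 0.385 over all probe sets. Among all 22215 probe sets this one had the smallest p in limma's moderated F test (2.37e-05), but it did not pass adjustment over all of them (adjusted p = 0.526). In the exact permutation test, in which the 6 arrays can take 60 different orders round the clock, its p was 0.017, the smallest that test can give, which 1.79% of all probe sets reached (adjusted p = 0.930 over all probe sets).

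**Figure D1:**
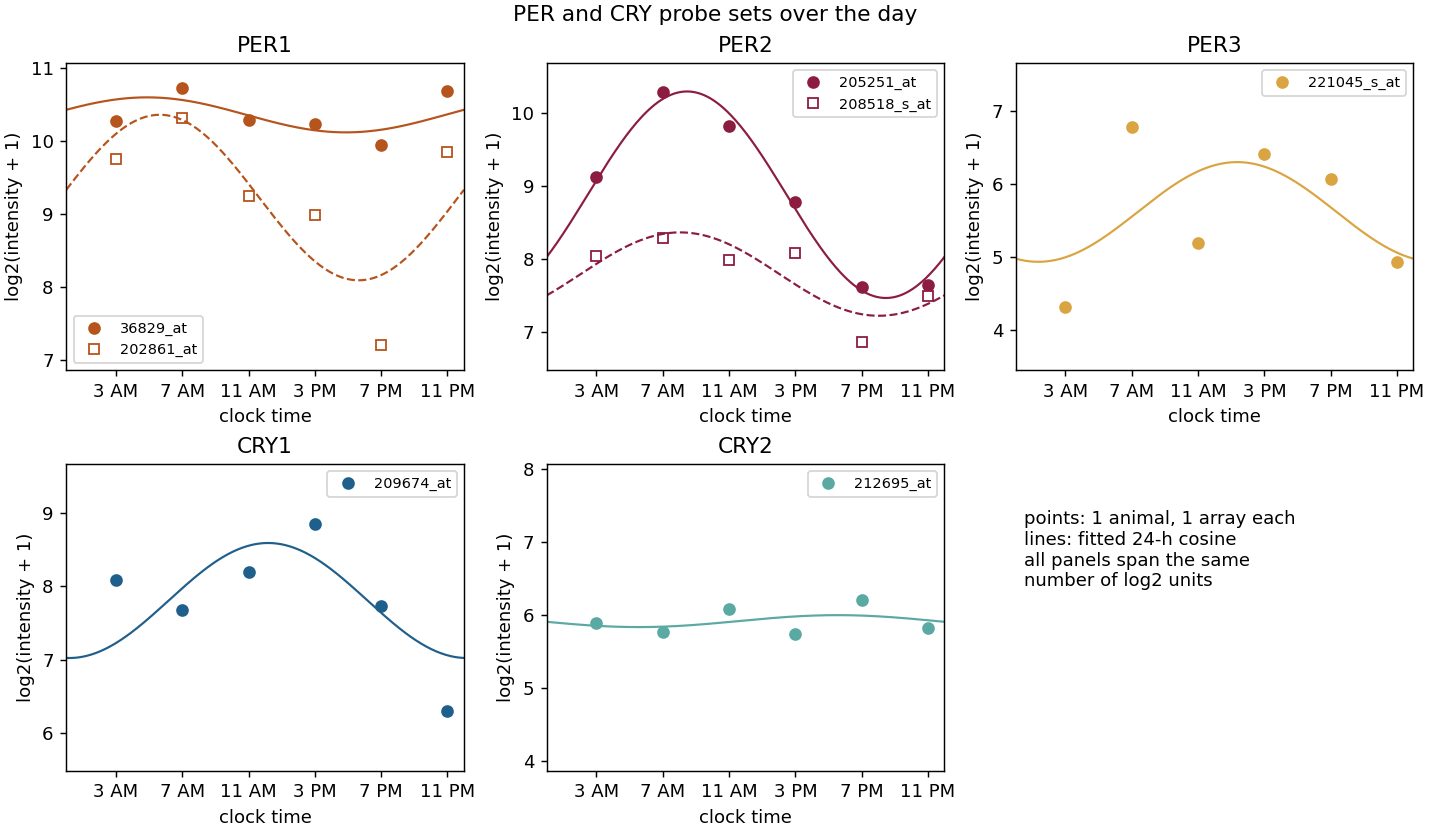
Log2(intensity + 1) of each Period and cryptochrome probe set against clock time. Each point is 1 animal on 1 array, lines are fitted 24-h cosines, and all panels span the same number of log2 units. PER2 205251_at follows its curve closely, with an R2 of 0.989, while CRY2 stays almost flat, with 0.116.

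The other PER2 probe set, 208518_s_at, repeated the timing at a smaller size. It read 262 at 3 AM, 314 at 7 AM, 253 at 11 AM, 270.5 at 3 PM, 116 at 7 PM and 180.2 at 11 PM. The 7 PM animal stood lowest, and the 4 animals from 3 AM to 3 PM lay within 1 standard deviation of a difference of their neighbours. The peak fell at hour 8.04 ± 1.39 (SE), with a peak-to-trough ratio of 2.20, and the unadjusted p was 0.0721, past no threshold. Between the 2 PER2 probe sets, log2 values correlated with r = 0.85 over the 6 arrays, which they share. Their fitted peaks differed by -0.42 ± 1.43 h (SE, 208518_s_at minus 205251_at).

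PER1, the Period gene that behaves as an immediate early gene in many cells, was bright on both of its probe sets. On 202861_at it read 865 at 3 AM, 1272 at 7 AM, 606 at 11 AM, 509 at 3 PM, 147 at 7 PM and 920.0 at 11 PM. On 36829_at it read 1242 at 3 AM, 1689 at 7 AM, 1256 at 11 AM, 1201 at 3 PM, 982 at 7 PM and 1646 at 11 PM. Both were highest at 7 AM and lowest at 7 PM, and both had 11 PM as the next highest level. The 11 PM animal was thus high in PER1 and low in PER2 205251_at.

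A sign of RNA quality, the ratio of the 3′ to the 5′ control probe set of GAPDH, moved with PER1. It was 0.988 at 3 AM, 0.721 at 7 AM, 0.885 at 11 AM, 1.16 at 3 PM, 1.15 at 7 PM and 0.880 at 11 PM. From low to high, this is the order of PER1 36829_at from high to low, apart from 3 PM and 7 PM, which change places. The 7 AM array, highest in all PER1 and PER2 probe sets, had the lowest ratio, and the 7 PM array, lowest in all of them, the second highest. The same ratio of ACTB was 0.802 at 7 AM and 0.813 at 7 PM, in a range of 0.61 to 0.819. The part of RNA quality in the PER1 and PER2 values was not tested.

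The size of the PER1 change depended on the probe set. Intensity at 7 AM was 8.64 times that at 7 PM on 202861_at and 1.72 times on 36829_at. The fitted ratio was 4.80 (log2 2.26 ± 0.65, SE) with a peak at hour 5.64 ± 1.10 on 202861_at, and 1.39 (log2 0.48 ± 0.29) with a peak at hour 4.88 ± 2.33 on 36829_at. The 2 probe sets correlated with r = 0.88 over the 6 arrays. By limma's moderated F test 202861_at had an unadjusted p of 0.0270 (adjusted p = 0.908, exact p = 0.15) and 36829_at one of 0.318 (exact p = 0.5).

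The 202861_at curve rested largely on the 7 PM animal, whose residual from the curve was -0.96 on the log2 scale, while that of the 11 PM animal was 0.81. Without the 7 PM array the log2 difference was 1.16 and the unadjusted p 0.0533, and without the 7 AM array the log2 difference was 2.23 and the p 0.107. With the ordinary F test, which does not borrow the spread of other probe sets, it was 0.212.

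All 4 probe sets of PER1 and PER2 were thus highest at 7 AM and lowest at 7 PM, which held for 3.08% of all probe sets. They report 2 genes from the same 6 arrays, and the rule was set after their values were seen, so this is a description.

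**Figure D2:**
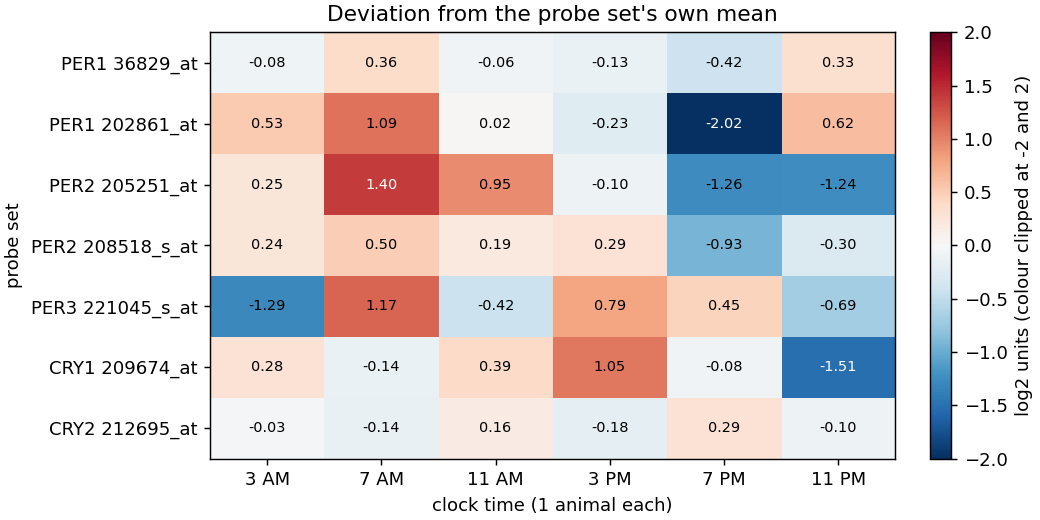
Deviation of each array from the probe set's own mean, in log2 units, for the 7 probe sets (rows) at the 6 clock times (columns, 1 animal each). The PER1 and PER2 rows share the high 7 AM and low 7 PM columns, and CRY1 is highest at 3 PM and lowest at 11 PM.

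CRY1, the stronger repressor of the cryptochrome pair in the mouse clock, ran later than PER1 and PER2. Probe set 209674_at read 271 at 3 AM, 203 at 7 AM, 292 at 11 AM, 463 at 3 PM, 211 at 7 PM and 77.8 at 11 PM. The 3 PM animal was highest and the 11 PM animal lowest. Only the gap between 7 AM and 11 PM, 1.37 on the log2 scale, exceeded the standard deviation of a difference (0.79). At 7 AM, where PER1 and PER2 stood highest, CRY1 had its second lowest level.

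The fitted CRY1 peak was at hour 12.2 ± 1.56 (SE), with a ratio of 2.98 (log2 1.57 ± 0.64) that did not pass (unadjusted p of 0.111, adjusted p = 0.908, exact p = 0.333). Log2 residuals from the curve were 0.86 for the 3 AM animal and -0.76 for the 11 PM animal. Leaving out 3 AM gave a log2 difference of 2.55 and an unadjusted p of 0.00666, whereas leaving out 11 PM gave 0.68 and 0.473. The 3 AM and 3 PM arrays are also those with the lowest added controls. The part of array quality in the CRY1 values was not tested beyond leaving both out, which gave a log2 difference of 2.22 and an unadjusted p of 0.0438 over the 4 arrays left.

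PER3, which is dispensable for the core rhythm in mice, gave a dim and irregular signal. It read 19 at 3 AM, 109 at 7 AM, 35.6 at 11 AM, 83.8 at 3 PM, 66.0 at 7 PM and 29.4 at 11 PM. Levels changed unevenly from one time to the next, and none of the 5 gaps in their order exceeded the standard deviation of a difference, 1.16 on the log2 scale. The fitted peak at hour 13.4 ± 2.65 (SE) and ratio of 2.57 had an unadjusted p of 0.40.

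CRY2, the other cryptochrome, was dim and nearly level. It read 58.2 at 3 AM, 53.8 at 7 AM, 66.6 at 11 AM, 52.3 at 3 PM, 72.9 at 7 PM and 55.6 at 11 PM. The whole range was 1.39-fold. The fitted ratio was 1.12 (log2 0.16 ± 0.59, SE, unadjusted p of 0.962), and its peak hour had a standard error of 13.7 h and so was undetermined. Whether these dim PER3 and CRY2 signals lay above background was not tested, since background was not given in the sources used here.

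Of the 7 probe sets, 2 had an unadjusted p under 0.05 by limma's moderated F test, PER2 205251_at and PER1 202861_at, where 5.31% of all probe sets did. After adjustment 0 of the 7 passed, as did 0% of all probe sets, although 1180 passed unadjusted, and 1154 by the ordinary F test. In the exact order test 1 of the 7 had a p under 0.05, where 3.52% of all probe sets did. The median log2 peak-to-trough difference was 1.36 over the 7 and 0.60 over all probe sets. That median of the 7 is the value of the dim PER3 probe set, which had an SE of 0.95 and did not pass. The 7 ran from 0.16 for CRY2 to 2.83 for PER2 205251_at, so the median does not describe the family.

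By fitted peak the members followed each other in the order PER1, PER2, then CRY1 and PER3. PER2 205251_at peaked 2.83 ± 1.15 h (SE) after PER1 202861_at, and CRY1 peaked 3.71 ± 1.60 h after PER2 205251_at. From PER1 202861_at to CRY1 the difference was 6.54 ± 1.91 h. These errors treat the residuals of the probe sets as independent, although they come from the same animals. With single arrays left out, the peak ran from hour 4.14 to 7.21 for PER1 202861_at and from 2.70 to 7.70 for PER1 36829_at. It ran from 8.30 to 8.64 for PER2 205251_at and from 10.8 to 14.0 for CRY1. Without the 11 PM array PER1 202861_at peaked at hour 7.21 and PER2 205251_at at 8.32, so their distance depended on that animal. On the other probe sets PER2 208518_s_at followed PER1 36829_at by 3.16 ± 2.71 h. PER3 and CRY1 differed by -1.18 ± 3.08 h (CRY1 minus PER3), which leaves their order undetermined. The order is a description, since the CRY1, PER3, PER1 36829_at and PER2 208518_s_at curves did not pass a threshold.

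The other genes of the loop had fitted peaks from hour 3.83 for DBP to 21.2 for CLOCK, and these outermost curves did not pass a threshold. Of 16 listed activators, nuclear receptors, DEC repressors and output factors, 13 had a probe set naming them alone, and 8 of the 13 had an unadjusted p under 0.05 by limma's moderated F test, where 5.31% of all probe sets did. None of the 13 passed adjustment (lowest adjusted p = 0.908). Of the 8, 5 peaked within 6 h of PER2 205251_at, as did 47.5% of all probe sets, and 3 peaked further away.

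BMAL1, the activator that drives the Period genes, read 609.5 at 3 AM, 620 at 7 AM, 986.5 at 11 AM, 1278 at 3 PM, 1838 at 7 PM and 997 at 11 PM. Its highest level fell at 7 PM, where all 4 PER1 and PER2 probe sets were lowest. NPAS2, which can replace CLOCK as the partner of BMAL1, peaked at hour 20.0 ± 0.60 (SE), and over the 6 arrays its log2 values correlated with those of PER2 205251_at with r = -0.97. CLOCK itself had a fitted ratio of 1.33 that did not pass. BMAL2, also listed as an activator and below the median level, peaked at hour 8.74 ± 2.11 (SE) and did not pass either. Correlations with PER2 205251_at were -0.68 for BMAL1, -0.56 for CLOCK and 0.62 for BMAL2.

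Among genes that share E-box or D-box control with the Period genes, HLF and TEF, activators that bind D-boxes, peaked at hours 6.24 ± 0.89 and 5.55 ± 1.21. The DEC repressors BHLHE40 and BHLHE41 peaked at 5.62 ± 0.74 and 6.83 ± 0.71, and the REV-ERB gene NR1D2 at 5.80 ± 0.99. All 5 had an unadjusted p under 0.05 by limma's moderated F test, and their fitted peaks lay nearer to PER1 202861_at than to PER2 205251_at. Whether they differed from either peak was not tested. Of the listed genes that did not pass, DBP peaked at 3.83 ± 1.84, RORA at 6.03 ± 2.16 and RORB at 7.65 ± 2.72. RORB lay nearer to PER2 205251_at. NFIL3, which competes for D-boxes as a repressor, peaked at 16 ± 1.08.

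**Figure D3:**
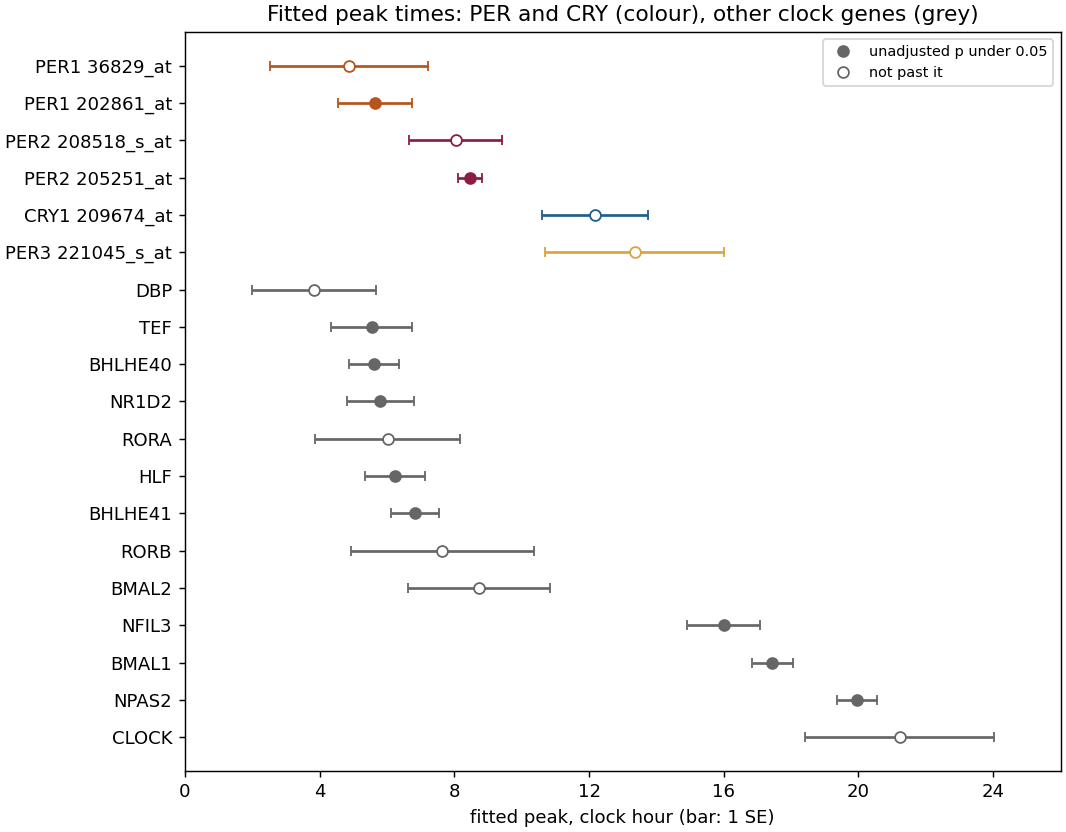
Fitted peak hour with 1 SE for Period and cryptochrome probe sets (colour) and other clock genes (grey); filled points had an unadjusted p under 0.05. The PER1 points lie at hours 4.88 and 5.64, PER2 at 8.04 and 8.47, CRY1 at 12.2 and BMAL1 at 17.4. CRY2 is left out because its SE is 13.7 h.

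Genes that control the stability of PER proteins were read at the RNA level. The genes described were casein kinases, which mark PER for destruction, the kinase gene GSK3B, the clock-associated gene TIMELESS, and the ubiquitin ligase adaptors of PER (BTRC, FBXW11). Of 9 genes listed, 7 were measured on their own probe set. Of these 7, 0 had an unadjusted p under 0.05 by limma's moderated F test, the lowest being 0.270, where 5.31% of all probe sets did. Their median log2 peak-to-trough difference was 0.23, beside 0.60 over all probe sets. CSNK1D, a main kinase of PER2, read between 649.9 at 3 AM and 949 at 7 AM, and BTRC between 484 at 7 AM and 566 at 7 PM. In the exact order test FBXW11 had a p of 0.033, at a log2 difference of 0.21, where 3.52% of all probe sets had a p under 0.05. CSNK1E was dim, between 29.7 at 11 AM and 47.3 at 3 PM, and below the median level.

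Of 10 glucocorticoid-responsive genes listed, 2 had an unadjusted p under 0.05 by limma's moderated F test, where 5.31% of all probe sets did, and 0 passed adjustment. NFKBIA, an inhibitor of NF-kB, peaked within 6 h of PER2, at hour 5.24 ± 1.06 (SE), and GLUL, glutamine synthetase, at hour 1.32 ± 0.93, further away. Of the 10, 8 had a fitted peak within 6 h of PER2 205251_at, as did 47.5% of all probe sets. At 7 PM, the low time of PER1 and PER2, 7 of the 10 had their lowest level, as did 15.6% of all probe sets. These 7 were FKBP5, TSC22D3, SGK1, DUSP1, ZBTB16, KLF9 and CEBPD, none of which had an unadjusted p under 0.05, and the tally was made after their values were seen.

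By likeness of log2 values over the 6 arrays, taken among probe sets that name 1 gene, have a mean no lower than the median and span at least 1 log2 unit, PER2 205251_at was nearest to CNOT6, a deadenylase subunit (r = 0.98), OLFM1, a secreted glycoprotein (r = 0.98), and SRSF11, a splicing factor (r = 0.96). It ran most opposite to SOD3, extracellular superoxide dismutase (r = -0.98), PANK3, a pantothenate kinase (r = -0.98), and CDC42EP4, a CDC42 effector (r = -0.97). PER1 36829_at was nearest to EIF2S2, a translation initiation factor subunit (r = 0.98), EGR1, an immediate early transcription factor (r = 0.97), and SLC6A6, the taurine transporter (r = 0.96). Its opposites were TMEM160 (r = -0.98), AIF1 (r = -0.97) and SERPINB3 (r = -0.97).

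CRY1 was nearest to TCTN1 (r = 0.99), TNKS, the poly-ADP-ribose polymerase tankyrase (r = 0.98), and DLEC1 (r = 0.98). Its opposites were UMPS, a pyrimidine synthesis enzyme (r = -0.98), POR, an electron donor of some steroid hydroxylases (r = -0.98), and ADD3, an adducin (r = -0.95). The dim PER3 and CRY2 signals also found matches, such as DNPEP for PER3 (r = 0.98) and MLEC for CRY2 (r = 0.99), as 6 points compared with 2866 to 2868 candidates allow. Over 0.9 the number of candidates ran from 16 for CRY2 to 41 for CRY1, with 25 for PER2.

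Age moved with clock time over the 6 animals and with PER1 and PER2. A cosine on age peaked at hour 6.23 with an R2 of 0.947, between the fitted peaks of PER1 and PER2. A straight line on age had an R2 of 0.678 for PER2 205251_at, 0.585 for PER2 208518_s_at, 0.523 for PER1 202861_at and 0.196 for PER1 36829_at. It had an R2 of 0.0284 for CRY1, 0.0285 for PER3 and 0.115 for CRY2. The cosine, which has 1 more term, took up more for 84.5% of all probe sets and for these 7. The margin in R2 was widest for CRY1 (0.483) and near 0 for CRY2.

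The 3 AM and 7 AM animals were both labelled 12 years old, and PER2 205251_at at 7 AM was 1248 against 559.5 at 3 AM. With age added to the model, PER2 205251_at had a log2 difference of 2.13 ± 0.79 (SE) with a peak at hour 9.37 and an unadjusted p of 0.00196. For PER2 208518_s_at that fit gave 0.54 ± 0.60 and a peak at hour 11.3, with an unadjusted p of 0.520. It gave 6.63 for CRY1, beyond the observed range of 2.56, 4.80 for PER1 202861_at, beyond 3.10, and 2.26 for PER1 36829_at, beyond 0.78. The CRY1 peak in that fit was at hour 17.3, against 12.2 without age. By limma's moderated F test CRY1 had an unadjusted p of 0.00173 there, below that of PER2 205251_at, although its size exceeded its observed range. A low p in that fit is therefore not read as a clock effect free of age. Age and clock time cannot be told apart for any of the 7 probe sets.

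**Figure D4:**
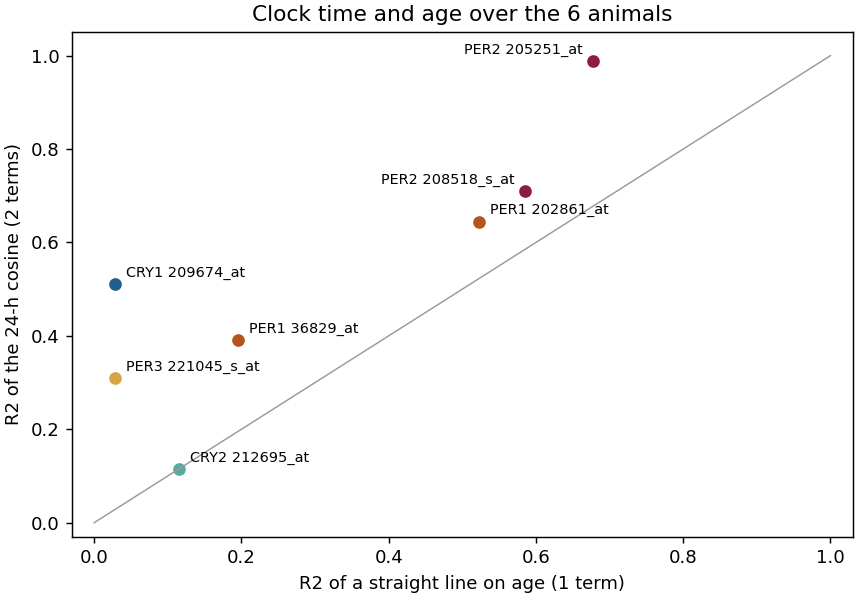
R2 of the 24-h cosine against R2 of a straight line on age for each probe set, with the line of equality. The 7 lie on or above the line, as 84.5% of all probe sets lie above it; PER2 205251_at is at 0.989 against 0.678, and CRY1 at 0.512 against 0.0284.

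Markers of the medulla also varied between arrays. The summed intensity of 7 chromaffin cell markers was 13944 at 3 AM, 35146 at 7 AM, 21416 at 11 AM, 27105 at 3 PM, 21234 at 7 PM and 19904 at 11 PM, so it was highest at 7 AM, as PER1 and PER2 were, and lowest at 3 AM, where they were not. Singly, 7 of 7 chromaffin markers had a fitted peak within 6 h of PER2 205251_at, beside 47.5% of all probe sets, and 2 had an unadjusted p under 0.05, beside 5.31%. These were DDC, which makes dopamine from DOPA, with a peak at hour 8.45, r = 0.81 with PER2 205251_at and its lowest level, 44.5, at 7 PM, and PNMT, which makes adrenaline, with a peak at hour 10.4 and r = 0.67. The sum of 7 adrenal cortex markers ran from 54375 at 3 AM to 81868 at 7 PM, and each of the 7 exceeded its mean over the arrays at 7 PM and at 11 PM. For smooth muscle this held for 5 of 5 markers at 7 PM and 0 of 5 at 11 PM, where CRY1 was lowest. At 11 PM it held for 0 of 5 endothelial, 0 of 2 red cell, 1 of 7 chromaffin, 2 of 4 macrophage and 3 of 5 adipocyte markers. Adipocyte markers were highest at 3 AM (sum 3716) and 11 PM (3175), with sums of 1287 to 2115 elsewhere. Endothelial markers summed to between 1121 at 11 PM and 2206 at 3 AM, of which VWF made up 1087. VWF read 78.3 to 281 on the other arrays. At 3 AM 2 of 5 endothelial markers exceeded their mean, against 5 of 5 at 11 AM. Macrophage markers summed to between 808 at 7 PM and 1284 at 7 AM, and 2 red cell markers to between 1501 at 11 PM and 2700 at 11 AM. The part of tissue composition in the Period and cryptochrome values was not tested.

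PER2 205251_at kept its size when any array was left out. The log2 difference ran from 2.70 without 11 PM to 3.00 without 11 AM, the peak from hour 8.30 to 8.64, and the unadjusted p from 7.31e-05 to 0.000523. With the ordinary F test on all arrays the p was 0.00115. Without both the 3 AM and 3 PM arrays, which leaves 1 residual degree of freedom, the log2 difference was 2.84 for PER2 205251_at, 1.45 for PER2 208518_s_at, 3.97 for PER1 202861_at, 1.19 for PER1 36829_at, 0.72 for PER3 and 0.70 for CRY2. With single arrays left out the log2 difference ran over 0.67 to 1.40 for PER2 208518_s_at, 1.16 to 2.97 for PER1 202861_at, 0.28 to 0.84 for PER1 36829_at, 0.68 to 2.55 for CRY1, 0.66 to 2.54 for PER3 and 0.088 to 0.47 for CRY2.

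**Figure D5:**
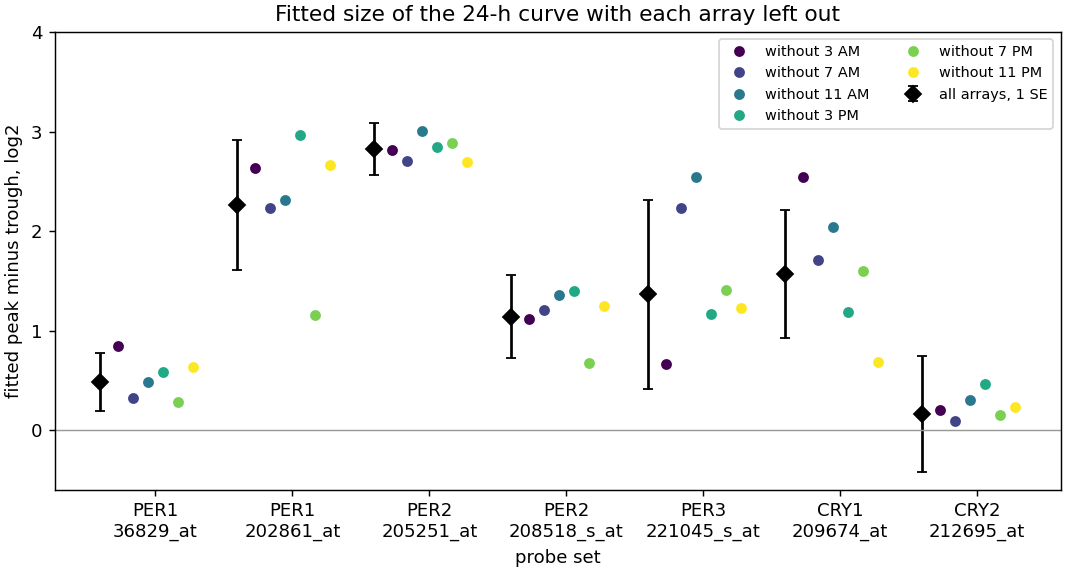
Fitted peak minus trough, in log2 units, with all 6 arrays (diamond, 1 SE) and with each array left out (points), for the 7 probe sets. Points for PER2 205251_at stay between 2.70 and 3.00, while those for CRY1 run from 0.68 to 2.55.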

How the data were processed

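Total RNA of 6 macaque adrenals was hybridised to 6 human arrays, 1 per animal, per the labels' protocols. The authors deposited linear intensity values, 1 for each probe set on each array, from 0.1 to 40394 as read from the values; trimmed means with 2% cut from each end lie between 325.04 and 325.09, so arrays had been scaled to a common level. The sources used here do not name the summary software. Of 22283 probe sets, 68 are controls; gene names came from GEO's platform annotation, in which 19065 probe sets name 1 gene, 1043 several and 2107 none.

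Values were converted to log2(value + 1). limma 3.58.1 in R 4.3.3 fitted an intercept and the cosine and sine of a 24-h period to all 22215 other probe sets, without a level filter because several members are dim. Both terms were tested together with the moderated F test, with an intensity trend in the prior and Benjamini-Hochberg adjustment over all probe sets; the threshold was 0.05. With 3 terms and 6 arrays, 3 residual degrees of freedom remained, to which the prior added 4.54. R2 was also compared over the 60 circular orders, any peak time counting, for every probe set. Peak times, ratios and their standard errors come from the fitted curve. Fold changes on the log2(value + 1) scale understate those of dim probe sets. The fits were also run on simulated data with independent noise in each probe set. Those data held no effect of age and none shared by the probe sets of an animal, so they do not bear on either.

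Members, lists and tests were chosen with earlier results of these data known. List genes were represented by the brightest probe set naming them alone. Named genes are the members, the listed genes, and the 3 most and 3 least correlated probe sets per gene. Alternatives covered the prior, the ordinary F test, a level filter, 1 probe set per gene, quantile normalization, median centring, a pseudocount of 16, age as a covariate and each array left out. The number of arrays limits the precision.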

Additional observations from a re-analysis of the deposited data

How the results depend on the processing

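The fit without the 3 AM and 3 PM arrays was chosen after seeing the data; the others were planned. The 2 Period and cryptochrome probe sets past the unadjusted threshold became 1 without the intensity trend, with the ordinary F test and with 1 probe set per gene, which drops PER1 202861_at, and 4 without 3 AM and 3 PM, where 1 residual degree of freedom is left. With single arrays left out the number ran from 1 to 3, being 1 without 7 AM or 7 PM; PER2 205251_at passed in every one of these fits, and with age as a covariate, where CRY1 took the place of PER1. For PER1 202861_at the log2 difference was 2.26 with an unadjusted p of 0.0747 without the trend and of 0.212 by the ordinary F test, and 4.80 with age (0.286); without single arrays it ran from 1.16 to 2.97, and without 3 AM and 3 PM it was 3.97. CRY1 passed with age (6.63, with its peak moved to hour 17.3) and without 3 AM and 3 PM (2.22), and ran from 0.68 to 2.55 without single arrays. PER1 36829_at passed only without 3 AM and 3 PM (1.19) among the fits run, and PER2 208518_s_at, 0.67 to 1.40 without single arrays, only without 3 PM; with age they had log2 differences of 2.26 and 0.54. Peaks moved by over 6 h for PER3 without 3 AM and 3 PM (log2 0.72, peak at hour 6.45) and for CRY2 without 7 PM (0.15, in a range of 0.088 to 0.47); neither was past a threshold. Apart from the arrays and probe sets left out, the cause was not tested. Over all probe sets 0 passed adjustment by limma in every fit run; unadjusted, 1180 became 617 of 11108 with the level filter and 695 of 12643 with 1 probe set per gene. The exact order test kept its side of the threshold for all 7 under quantile normalization, centring and the larger pseudocount, with p between 0.0667 and 0.15 for PER2 208518_s_at. No paired analysis was possible because no time was sampled in more than 1 animal. Comparisons of promoter and protein sequence were not run. Signal over background was not given, which limits PER3 and CRY2.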
